A study of Mus musculus with 16 samples.

Results

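Myh7 and Myh6 encode the β and α myosin heavy chains, the motor proteins of the cardiac thick filament, and were followed here together with the related gene Myh7b, in whole hearts of mice that lack the mineralocorticoid receptor in cardiomyocytes. All probes that the array's accession column ties to these genes were taken: 4 of the 41174 probes, of which 2 read Myh7 and 2 read Myh6, while 0 matched Myh7b, which is not described further. The genes were chosen because Myh7 differs between the genotypes in these same data, so every difference between genotypes given for them is a description without a test, and tests were kept for age. The 16 arrays fall into 4 groups of 4 male mice on a C57BL/6 background, called flox and cardioMRKO at 1 month and at 2 months of age. All mice carried a floxed allele of the receptor gene. The cardioMRKO mice also carried the αMHC-Cre transgene, whose promoter is that of Myh6 and which acts in cardiomyocytes, whereas the flox mice were littermates without Cre. Receptor loss and the Cre transgene itself therefore cannot be told apart. Each mouse gave 1 heart and 1 single-colour array, and the 4 arrays of a group lay on a slide of their own, so that slide and group cannot be told apart either.

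As background, the adult mouse ventricle runs mainly on the fast α chain of Myh6, while the slower β chain of Myh7 dominates before birth and declines after it as thyroid hormone rises. Thyroid hormone activates Myh6 and represses Myh7, and Myh7 returns in hypertrophied, hypothyroid and failing rodent hearts, where it is read as part of the fetal gene programme. The genes lie beside each other on chromosome 14, Myh7 ahead of Myh6 in the direction of transcription. In the RefSeq annotation, Mhrt, a long noncoding RNA, overlaps Myh7, and the microRNA genes Mir208a and Mir208b lie within Myh6 and Myh7. In the bulk hearts measured here, more cells with Myh7 RNA and more Myh7 RNA per cell cannot be told apart.

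The 250 bases before the start of each gene are shown because the Myh7 promoter belongs to the member with the larger difference between the genotypes, and the Myh6 promoter to the gene whose regulatory sequence drives Cre. Both come from RefSeq on GRCm38.p6 and are written 5′ to 3′ on the minus strand, which both genes use, from chr14:54994627-54994876 for Myh7, at the more upstream of its listed starts, and from chr14:54966608-54966857 for Myh6. Capitals mark matches on either strand to CATNCC, the MCAT motif that TEAD factors bind.
Myh7: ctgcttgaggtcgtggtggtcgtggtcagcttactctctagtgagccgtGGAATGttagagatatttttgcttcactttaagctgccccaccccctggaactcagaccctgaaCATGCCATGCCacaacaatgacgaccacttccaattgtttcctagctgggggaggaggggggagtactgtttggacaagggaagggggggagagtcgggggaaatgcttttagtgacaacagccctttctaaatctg
Myh6: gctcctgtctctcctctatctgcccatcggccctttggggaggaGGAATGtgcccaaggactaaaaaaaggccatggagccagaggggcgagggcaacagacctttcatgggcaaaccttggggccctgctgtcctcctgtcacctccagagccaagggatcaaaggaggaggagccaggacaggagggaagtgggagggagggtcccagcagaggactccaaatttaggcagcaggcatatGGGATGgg
The Myh7 window held 3 matches, at positions -201 to -196 on the opposite strand and at -137 to -132 and -132 to -127 on the gene's own strand, counted back from the start, and the last 2 share 1 base. The Myh6 window held 2, at -206 to -201 and at -8 to -3, both on the opposite strand. Of 32851 promoter windows of this length, 35.8% held at least 1 such match. AGGTCA, the core of thyroid hormone response elements, had no exact match in either window and was present in 14.0% of all windows. Only these exact letters were searched, so an element with other letters would be missed. The absence of a thyroid hormone response element is therefore not read from this. These are descriptions of letters in the windows.

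Between 62.5% and 71.6% of probes were well above background per array, the 75th percentile of the processed signal, by which each array was scaled, ran from 527.0 to 1090.7 units, and no spot was saturated. Levels below are log2 of the processed signal minus the log2 of that percentile, so that a difference of 1 is a factor of 2. Of the 12 genes fixed as markers of skeletal muscle, 10 were higher on flox replicate 3 and 10 on cardioMRKO replicate 4, both at 2 months, than on every other array of their group; their mean level was 1.42 and 0.91 on these arrays and -1.82 to -1.13 on the other 14. The mean of 10 cardiomyocyte markers lay between 6.75 and 7.17 on all arrays, with all 10 well above background. The mean of 6 airway markers ran from -6.16 to 5.47, and was 2.25 to 5.47 in flox hearts at 2 months against -6.16 to -5.30 on 3 of the 4 flox arrays at 1 month. The mean of 8 fibroblast markers was 4.12 to 4.44 on the arrays at 1 month and 3.47 to 3.83 on those at 2 months, without overlap, and that of 6 lymphocyte markers -3.96 to -3.03 and -3.50 to -1.16, without overlap within either genotype. The part of these markers in the age differences was not tested. Nr3c2, which encodes the mineralocorticoid receptor, read -4.22, -4.29, -4.56 and -4.76 in flox and -4.58, -4.79, -4.53 and -4.63 in cardioMRKO hearts at 1 month, overlapping ranges, and -3.72, -3.89, -3.76 and -3.44 against -3.90, -4.05, -4.44 and -4.13 at 2 months. The ranges at 2 months lay just apart, as those of 10.2% of all genes did. Neither difference passed the test (-0.17, limma adjusted p = 0.987, and -0.43, adjusted p = 0.122). The labels and files do not place its probe relative to the deleted part, so it does not check the genotype labels. Nr3c1, the glucocorticoid receptor, did not pass either (0.31, limma adjusted p = 0.638, and -0.13, adjusted p = 0.535).

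Myh7 was about 10 times higher in cardioMRKO than in flox hearts at both ages. Its processed signal, in the scanner's intensity units, was 6077, 7179, 8592 and 6646 on the flox arrays at 1 month and 72547, 88686, 88965 and 68256 on the cardioMRKO arrays. At 2 months it was 10640, 12302, 6720 and 7325 against 105630, 107632, 136359 and 80069. The highest flox array, 12302, was thus far below the lowest cardioMRKO array, 68256, and the genotypes did not overlap at either age; that held for 7.64% of all genes at 1 month and 10.2% at 2 months, beside which nothing is read from Myh7, since it was chosen on this contrast. On the scaled log2 level, the means were 3.33 ± 0.15 in flox and 6.76 ± 0.19 in cardioMRKO hearts at 1 month, and 3.91 ± 0.28 and 7.07 ± 0.19 at 2 months (SD, n = 4 each). The difference was 3.44 at 1 month (SE 0.148), a 10.8-fold higher level with a 95% interval of 8.68- to 13.5-fold. At 2 months it was 3.16 (SE 0.148), or 8.96-fold with an interval of 7.19- to 11.2-fold. By size these differences ranked 8 and 5 among the 20062 genes measured, a description, since the gene was chosen on them. The difference at 2 months minus that at 1 month was -0.27, with a 95% interval of -0.72 to 0.18, given as a description.

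**Figure D1:**
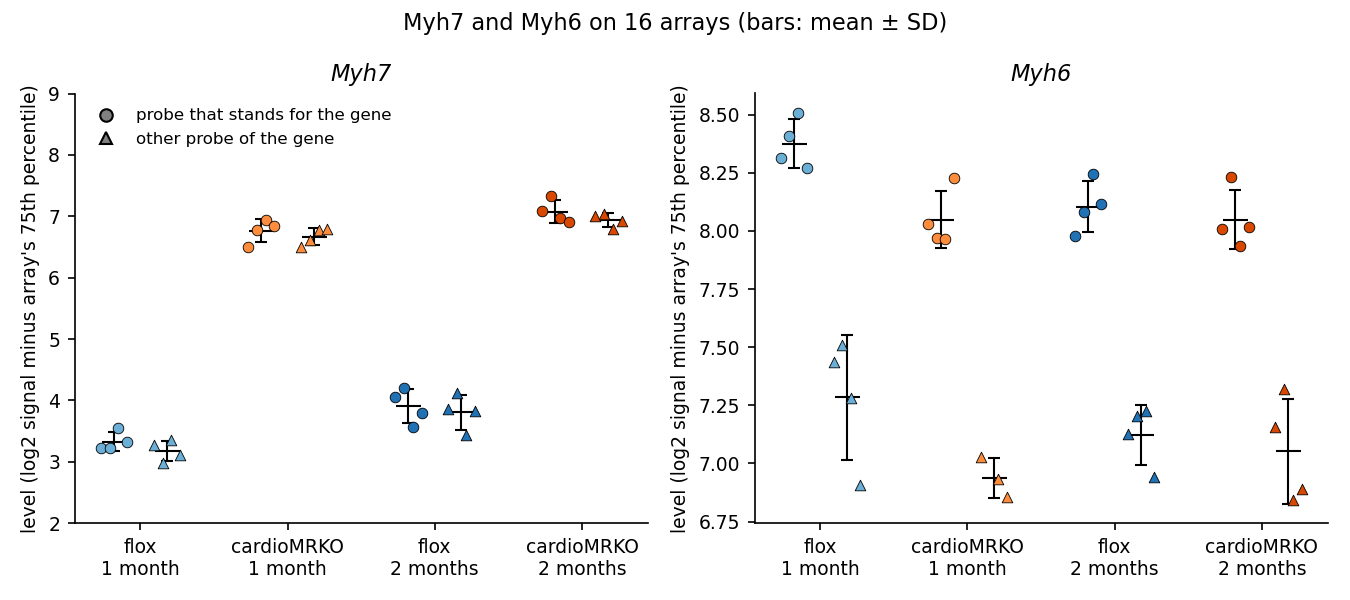
Level of Myh7 (left) and Myh6 (right) on each of the 16 arrays, as log2 signal minus the array's 75th percentile, by genotype and age, with circles for the probe that stands for the gene, triangles for its other probe and bars for mean ± SD. Myh7 sits at 3.33 and 3.91 in the flox groups and at 6.76 and 7.07 in the cardioMRKO groups, whereas the Myh6 groups lie between 8.05 and 8.37 by the same kind of probe; the vertical position of one probe is not comparable with that of another.

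With age, Myh7 rose in flox hearts. Its level was 3.23, 3.22, 3.55 and 3.32 at 1 month and 4.06, 4.21, 3.57 and 3.80 at 2 months, so that the lowest array at 2 months was just above the highest at 1 month. The rise was 0.58 (SE 0.148), or 1.5-fold, with a limma adjusted p of 0.0113 over 20062 genes and all 4 arrays at 2 months above all 4 at 1 month. In this comparison 22.7% of all genes tested passed in either direction, 16.7% as higher, and 28% had groups that did not overlap. All genes together had a median of 0.07. The other Myh7 probe gave 0.63 (limma adjusted p = 0.00963 over all probes). Scaled by the array median instead, the rise was 0.40 and did not pass (limma adjusted p = 0.115), and with no scaling it was 0.34 (adjusted p = 0.282).

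In cardioMRKO hearts the levels of Myh7 were 6.50, 6.78, 6.94 and 6.84 at 1 month and 7.08, 7.33, 6.97 and 6.91 at 2 months, and the ages overlapped. The difference of 0.31 (SE 0.148; 1.24-fold, 95% interval 0.995- to 1.54-fold) did not pass the test (limma adjusted p = 0.212). In this comparison 10.2% of genes passed, and 19.9% had groups that did not overlap. Ordered by level, flox at 1 month came below flox at 2 months, then cardioMRKO at 1 month, then cardioMRKO at 2 months, and only the last 2 overlapped.

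Myh6 varied far less. Its level was 8.31, 8.41, 8.51 and 8.27 in flox hearts and 8.03, 7.97, 7.96 and 8.23 in cardioMRKO hearts at 1 month, where the groups did not overlap, as for 7.64% of all genes. At 2 months it was 7.98, 8.08, 8.24 and 8.12 in flox and 8.01, 8.23, 7.93 and 8.02 in cardioMRKO hearts, and the groups overlapped. The cardioMRKO minus flox difference was -0.33 at 1 month (SE 0.097), a 1.25-fold lower level, with a 95% interval on the log2 scale of -0.53 to -0.12. The cardiomyocyte markers moved with it: all 10 were lower in cardioMRKO hearts at 1 month, and their mean was 6.75 to 6.95 there against 7.03 to 7.15 in flox hearts, without overlap. Their part in the Myh6 difference was not tested. At 2 months their mean overlapped, at 6.77 to 7.17 in cardioMRKO and 6.88 to 7.02 in flox hearts. The Myh6 difference at 2 months was -0.06, with an interval of -0.26 to 0.15. The sign at 2 months turned under 2 other scalings, to 0.34 with none and to 0.10 with quantile normalization, which gave -0.07 at 1 month. The difference of these differences was 0.27 (95% interval -0.02 to 0.565).

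Over time in flox hearts Myh6 differed by -0.27 (1.21-fold lower at 2 months, SE 0.097), and the ages did not overlap, as for 28% of all genes. The difference missed the threshold (limma adjusted p = 0.0605). It passed without flox replicate 3 at 2 months (-0.32, limma adjusted p = 0.0485) and without cardioMRKO replicate 3 at 2 months (-0.27, adjusted p = 0.0471), and also with the array median as scale (-0.45, adjusted p = 0.0128). The other Myh6 probe gave -0.16 (limma adjusted p = 0.571). The mean of the cardiomyocyte markers was also lower in flox hearts at 2 months than at 1 month, without overlap, with 7 of the 10 lower. In cardioMRKO hearts the means were 8.05 ± 0.12 at 1 month and 8.05 ± 0.13 at 2 months (SD, n = 4), with a limma adjusted p of 0.998 and a 95% interval of the difference of -0.21 to 0.21. Of the 4 groups, flox at 1 month was the highest at 8.37 ± 0.11, and the other 3, flox at 2 months included at 8.10 ± 0.11, overlapped one another.

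The ratio of Myh7 to Myh6 on the same array needs no scaling between arrays and is given relative to the mean of flox hearts at 1 month, since only its changes can be read across probes. In flox hearts it was 0.97, 0.91, 1.06 and 1.07 at 1 month and 2.19, 2.25, 1.30 and 1.65 at 2 months. In cardioMRKO hearts it was 11.4, 14.5, 16.2 and 12.6 at 1 month and 17.4, 17.7, 16.9 and 15.3 at 2 months. The lowest cardioMRKO array was at 11.4 and the highest flox array at 2.25. On the log2 scale the genotype difference was 3.76 at 1 month and 3.22 at 2 months, or 13.6- and 9.31-fold.

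In flox hearts the ratio was higher at 2 months than at 1 month by 0.85 on the log2 scale, or 1.80-fold, with no overlap between the ages (exact permutation test of 4 against 4 arrays, two-sided p = 0.0286, the smallest this design allows). In cardioMRKO hearts the difference was 0.31, or 1.24-fold, the ages overlapped, and the exact p was 0.0571; adjusted over these 2 tests by Benjamini-Hochberg, both p-values were 0.0571, so neither passed. With the other Myh7 probe the difference in flox hearts was 0.90 (exact p = 0.0286), with the other Myh6 probe 0.74 (exact p = 0.0571, ages overlapping), and with both other probes 0.79 (exact p = 0.0286). Leaving out flox replicate 1, 2, 3 or 4 at 1 month gave 0.80 to 0.88 with an exact p of 0.0571 in each case, and leaving out cardioMRKO replicate 3 at 1 month gave 0.39 with an exact p of 0.0286 for that genotype.

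**Figure D2:**
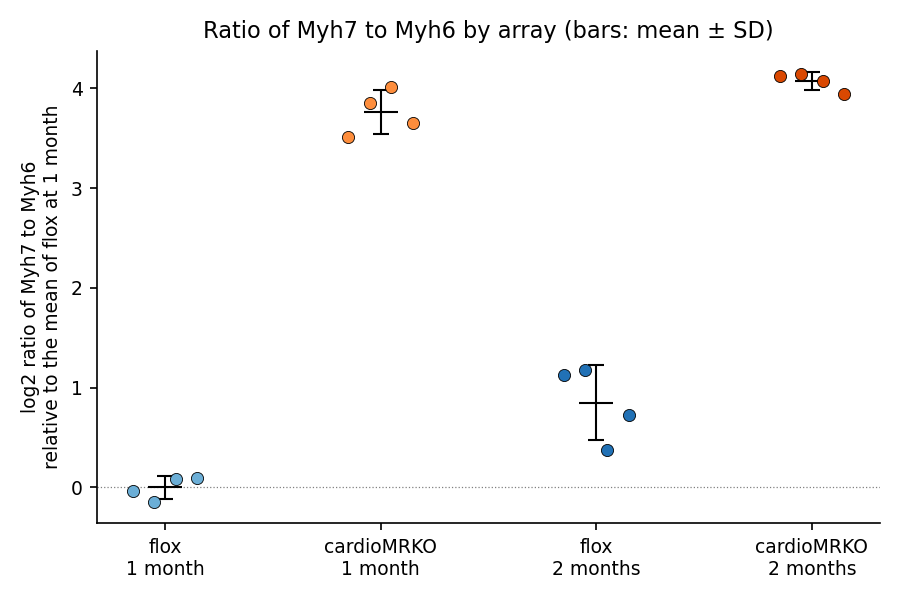
Log2 ratio of the Myh7 to the Myh6 signal on each of the 16 arrays, relative to the mean of flox hearts at 1 month (dotted line), by genotype and age, with bars for mean ± SD. The group means are 0, 3.76, 0.85 and 4.07 from left to right, and the 8 cardioMRKO arrays all lie above the 8 flox arrays.

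The 2 Myh7 probes gave nearly the same differences, and the 2 Myh6 probes agreed less well for the size of what they measured. Relative to its mean, the gap between the Myh7 probes stayed between -0.16 and 0.17 over the 16 arrays, against a genotype difference of 3.44 and 3.16 by one probe and 3.49 and 3.13 by the other. The gap between the Myh6 probes ran from -0.19 to 0.33, as wide as the Myh6 differences themselves. The second Myh6 probe gave genotype differences of -0.35 at 1 month and -0.07 at 2 months. Its spot on cardioMRKO replicate 2 at 1 month read 13595 units and was marked by the scanner software as not uniform, so it was treated as missing and that group has n = 3 for this probe. All spots of all 4 probes were well above background.

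The scanner read bright spots at a lower gain and scaled them up, from 16335 to 19108 units upward depending on the array. Both Myh7 probes were read at the lower gain on all 8 cardioMRKO arrays and on 0 of the 8 flox arrays. Every uniform spot of Myh6 was read at the lower gain. The gain therefore moved with genotype for Myh7, and its part in the size of the difference was not tested. The position of the probes in the transcripts, and whether they tell apart near-identical myosin genes, was not given in the files or labels.

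Mhrt, the noncoding neighbour known as an antagonist of the Brg1 chromatin remodeller in stressed hearts, was looked at after its values were seen, so no test is given. Its level was 3.67, 3.67, 3.86 and 4.00 in flox and 2.91, 3.59, 3.47 and 3.63 in cardioMRKO hearts at 1 month, and 2.60, 3.24, 3.50 and 2.44 against 3.44, 3.63, 2.86 and 3.37 at 2 months. The genotype difference was -0.40 at 1 month and 0.38 at 2 months (SE 0.238 each), and only the groups at 1 month did not overlap, as for 7.64% of all genes there.

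The genes most like Myh7 over the 16 arrays, by the root mean square difference of levels centred on each gene's mean, were Ndnf, Ddias, Kcnj14, Gdf15 and Meig1, out of 14960 genes with a symbol. Their distances of 1.05, 1.09, 1.16, 1.20 and 1.20 are large beside the 1.68 by which Myh7 itself varied about its mean. None of the genes with a symbol therefore followed it closely in both direction and size. Genes without a symbol were not searched. A gene of smaller spread lies far from Myh7 by this measure even where its pattern is alike. Ndnf, for example, varied by 0.673 about its own mean. It read -1.61 to -0.87 on the flox arrays and -0.09 to 0.15 on the cardioMRKO arrays of both ages. Ndnf, a secreted protein, was higher in cardioMRKO hearts by 1.36 at 1 month and 1.23 at 2 months. Gdf15, a stress-induced cytokine of the TGF-β superfamily, differed by 1.16 and 1.58, and Kcnj14, an inward rectifier potassium channel, by 0.69 and 1.71. These genes were picked for the likeness and get no test. For Myh6 the nearest were Snrpb, Parl, Pkig, Rnf31 and Sppl3, at distances of 0.114 to 0.117 against 0.169 for Myh6 itself. Any gene of small spread lies near Myh6 by this measure.

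**Figure D3:**
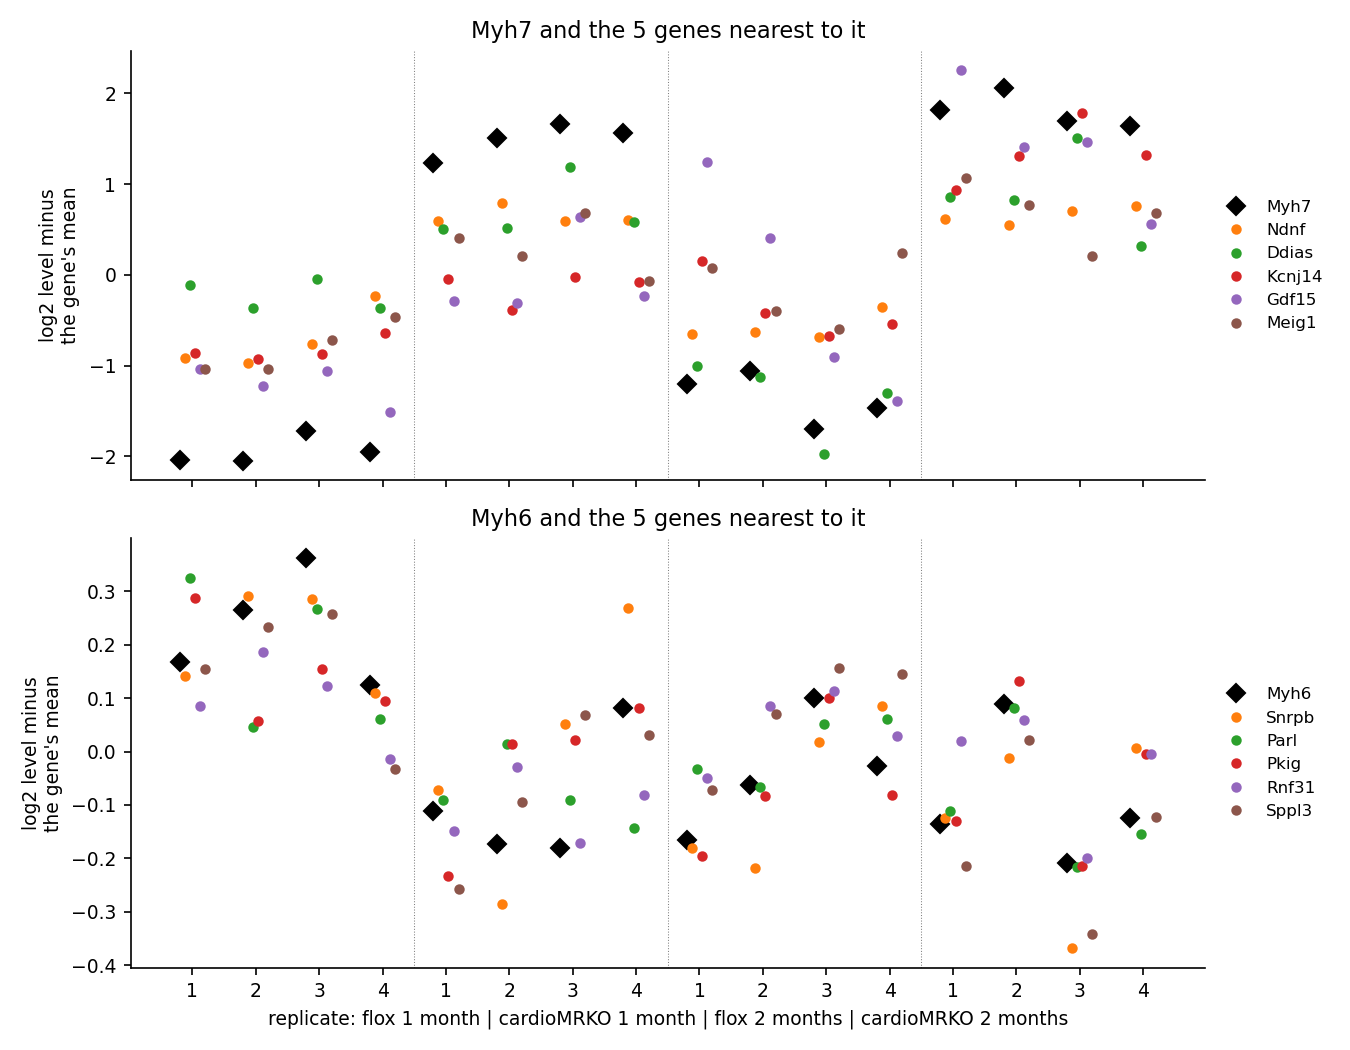
Level of Myh7 (top) and Myh6 (bottom), each with its 5 nearest genes, on the 16 arrays as log2 level minus the gene's own mean; the x axis gives the replicate within flox and cardioMRKO at 1 month, then flox and cardioMRKO at 2 months. The Myh7 diamonds swing further between genotypes than any of the 5 genes, whose distances from it are 1.05 to 1.20, and the lower panel spans a far smaller range.

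At 1 month the members of 9 lists of partner and related genes differed between the genotypes by -0.85 to 0.82. This range is given as a description beside the 3.44 of Myh7, which was chosen on this contrast. The 9 lists were other myosin heavy chains, myosin light chains, thick filament partners, thin filament genes, slow muscle partners, fetal and hypertrophic genes, thyroid hormone handling, thyroid hormone responsive heart genes and transcription regulators of cardiac myosin genes, and some genes stand in several. Between cardioMRKO and flox hearts at 1 month limma called 0 members of any list, against 0.0947% of all genes (19 of 20062, 0.0498% higher and 0.0449% lower). With so few calls among all genes, nothing is read from 0 in lists of this size. Unadjusted p-values under 0.05 numbered 3 of 9, 1 of 10, 2 of 16, 1 of 18, 1 of 10, 2 of 22, 2 of 14, 0 of 15 and 1 of 37 in that order, against 1207 of all 20062 genes. The list medians ran from -0.24 for other myosin heavy chains, all 9 of which were below 0, to 0.03 for transcription regulators, beside 0.02 for all genes, whose 19 calls were 52.6% higher (41.2% with the array median as scale, 41.7% with normexp correction). Among the members with the smallest p of their lists were Myh8, the perinatal myosin (-0.70, limma adjusted p = 0.396), Myl3, the slow ventricular essential light chain (-0.28, adjusted p = 0.734), the actin-capping Tmod4 (0.54, adjusted p = 0.439), desmin, Des (-0.28, adjusted p = 0.555), the retinoid receptor Rxrg (-0.27, adjusted p = 0.786) and Mef2a (0.19, adjusted p = 0.804).

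At 2 months, 4 members passed. Myh8 and Myh4, genes of the perinatal and the fast IIb skeletal myosins, were the 2 of 9 other myosin heavy chains that were higher in cardioMRKO hearts, against 3.54% of all genes called, 1.55% higher and 1.99% lower. Myh8 read 5.08, 5.68, 6.04 and 5.69 in flox and 6.86, 7.31, 6.57 and 6.91 in cardioMRKO hearts, without overlap, a difference of 1.29 (SE 0.189, limma adjusted p = 0.00231). Myh4 read 4.75, 5.43, 5.68 and 5.16 against 6.29, 6.87, 6.31 and 6.45, also without overlap, a difference of 1.22 (SE 0.203, adjusted p = 0.00509). At 1 month Myh8 stood at 7.08 in flox and 6.38 in cardioMRKO hearts and Myh4 at 6.70 and 6.31. The genotype difference therefore changed with age, by 1.99 for Myh8 (limma adjusted p = 0.00346) and 1.61 for Myh4 (adjusted p = 0.020). The list's median was 0.25 beside -0.08 for all genes. Of all genes called at 2 months 43.7% were higher, a share that was 94.3% without scaling and 25.0% with normexp correction; Myh4 and Myh8 passed under both of these. In a fit of the 8 arrays at 2 months alone the calls of Myh8 (adjusted p = 0.0724) and Myh4 (adjusted p = 0.0743) were lost. Whether the probes of Myh8 and Myh4 tell near-identical myosin genes apart was not given either, so that which of these genes they read is uncertain.

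Mybpc2, the fast skeletal myosin binding protein C, was the 1 of 16 thick filament partners called at 2 months: it read 2.28, 2.03, 2.45 and 1.48 in flox and 2.81, 3.36, 3.18 and 2.94 in cardioMRKO hearts, 1.01 higher (SE 0.179, limma adjusted p = 0.00756; 0.117 from the 8 arrays alone). Of all genes 3.54% were called in this comparison, 1.55% as higher. Without flox replicate 3 at 2 months 2 thick filament partners were called, in a fit that called 380 of all genes instead of 710. Eya1, a transcriptional cofactor of developing muscle, was the 1 of 37 transcription regulators called, beside 3.54% of all genes, 1.99% as lower. Nothing is read from a count so near that share. Eya1 was lower in cardioMRKO hearts, with a difference of -0.48 (SE 0.120, limma adjusted p = 0.042). That call was lost without flox replicate 2, 3 or 4 or cardioMRKO replicate 1, 2 or 3 at either age, with adjusted p-values of 0.0548 to 0.108, and also from the 8 arrays alone (0.223), without a filter on dim probes (0.0862), with the array median as scale (0.0774), with normexp correction (0.0606) and with no scaling, where the difference was -0.08 (0.695).

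In the other lists 0 of 10 myosin light chains, 0 of 18 thin filament genes, 0 of 10 slow muscle partners, 0 of 22 fetal and hypertrophic genes, 0 of 14 thyroid hormone handling genes and 0 of 15 thyroid hormone responsive genes passed limma's test at 2 months, where 3.54% of all genes passed. At an unadjusted p under 0.05 were 1, 6, 4, 6, 4 and 4 in that order, against 3777 of all 20062 genes. Leaving out cardioMRKO replicate 1 at 2 months called 1 thin filament gene, leaving out flox replicate 4 at 2 months 1 fetal gene, and leaving out flox replicate 1 at 1 month or flox replicate 2 at 2 months 1 and 2 thyroid hormone responsive genes. Their smallest p-values belonged to Myl3 (-0.25, limma adjusted p = 0.218), the cardiac actin Actc1 (-0.39, adjusted p = 0.0876), the slow troponin Tnni1 (-0.59, adjusted p = 0.139), Uchl1 (0.60, adjusted p = 0.0861), Rxrg (-0.32, adjusted p = 0.141) and the β1 adrenergic receptor Adrb1 (-0.70, adjusted p = 0.0743). Actc1, Adrb1 and Uchl1 each passed when 1 array was left out: Actc1 without cardioMRKO replicate 1 at 2 months (adjusted p = 0.0424), Adrb1 without flox replicate 1 at 1 month (0.0394) or flox replicate 2 at 2 months (0.0354), and Uchl1 without flox replicate 4 at 2 months (0.00607).

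**Figure D4:**
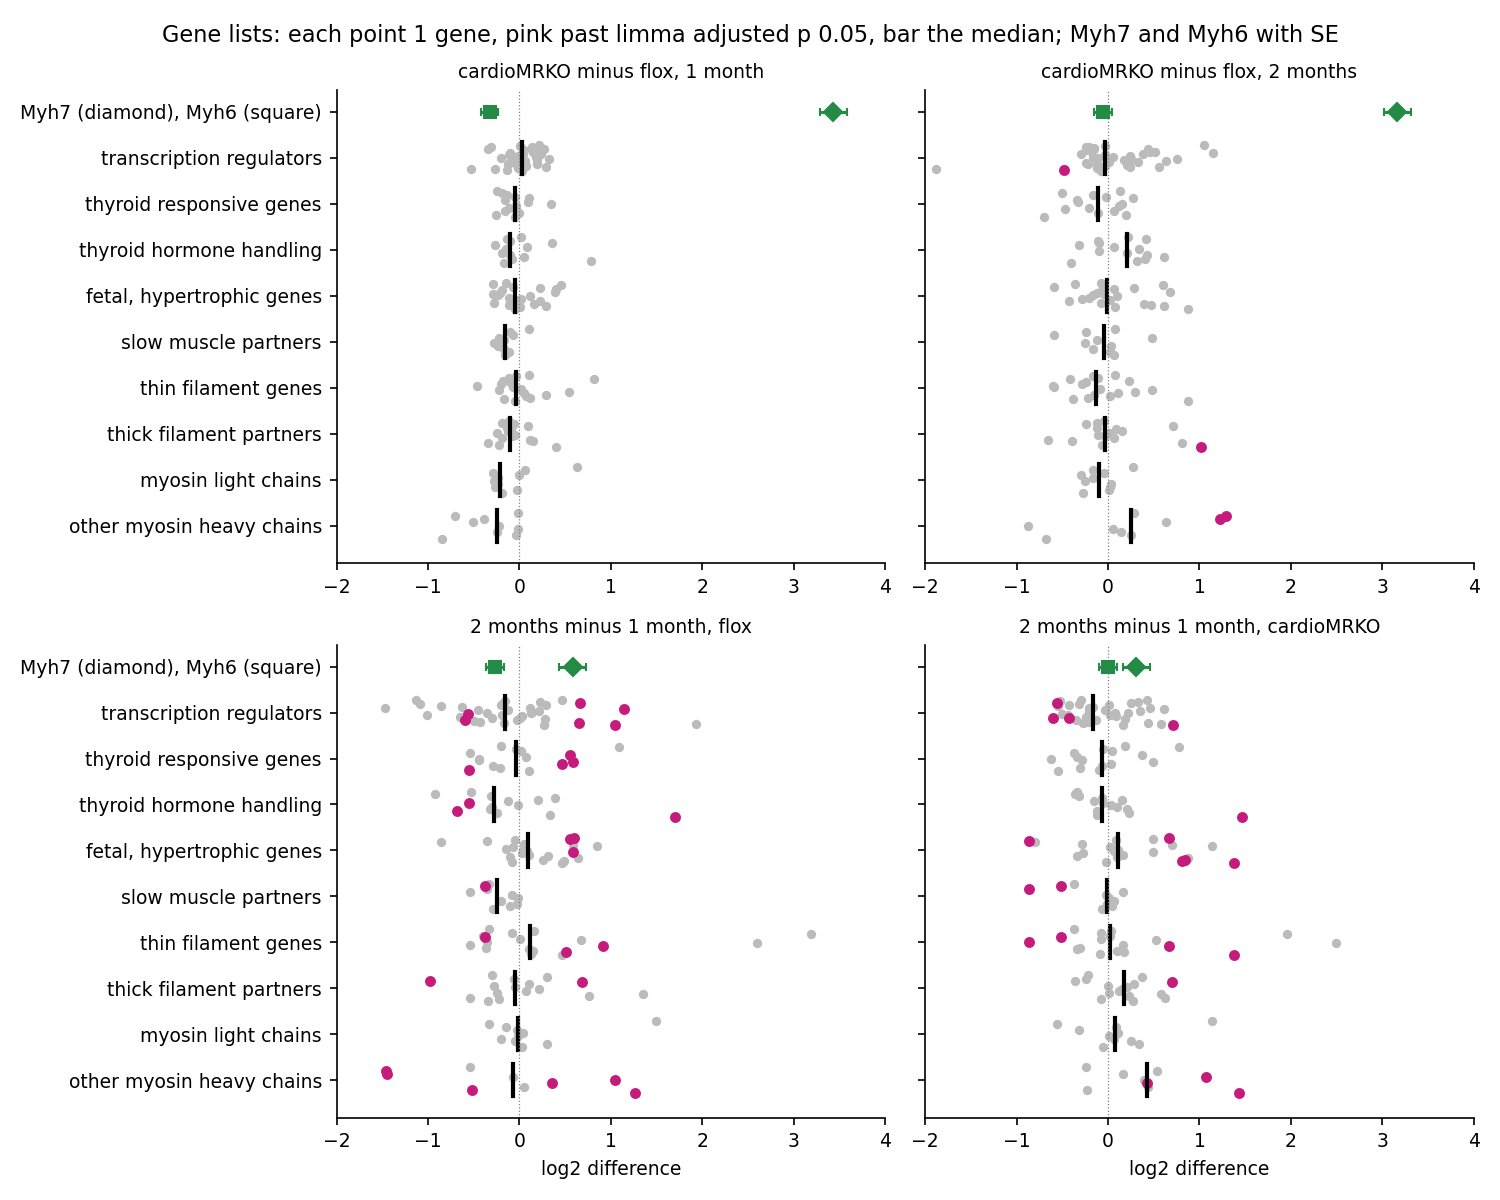
Log2 difference of every tested member of the 9 gene lists in the 4 comparisons, with genes past a limma adjusted p of 0.05 in pink, the list median as a black bar, and Myh7 (diamond) and Myh6 (square) with their SE in the top row. Myh7 stands at 3.44 and 3.16 in the genotype panels, where the list medians stay between -0.24 and 0.25.

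The age comparisons, which the choice of Myh7 and Myh6 did not use, put the rise of Myh7 in flox hearts beside the same lists. Of the 9 other myosin heavy chains, 3 rose and 3 fell from 1 to 2 months in flox hearts, where 22.7% of all genes were called (16.7% higher, 5.91% lower). Myh1, a fast IIx myosin, is 1 of those that rose in each genotype, but it was well above background on 1 of 4 flox and 0 of 4 cardioMRKO arrays at 1 month and entered the test only through flox hearts at 2 months, so its call in flox hearts had to lie in this direction, and nothing is read from either. Myh8 fell by 1.46 (SE 0.189, limma adjusted p = 0.000241) from 7.01, 7.23, 7.20 and 6.86 to 5.08, 5.68, 6.04 and 5.69, without overlap, and Myh4 fell with it by 1.44. In cardioMRKO hearts 3 of 9 rose and 0 fell, where 10.2% were called (5.32% higher, 4.92% lower). Without cardioMRKO replicate 3 at 2 months 5 of 9 were called, in a fit that called 2594 of all genes instead of 2056. The embryonic myosin Myh3 rose in cardioMRKO hearts by 1.07 (SE 0.206, limma adjusted p = 0.00509), a call lost after normexp correction (0.34, adjusted p = 0.138). The share of higher genes among all called was 73.9% in flox hearts, 49.9% with the array median as scale, 53.5% with none and 61.5% with quantile normalization; in cardioMRKO hearts it was 51.9%, 30.7% with the median, 78.3% with none and 35.1% with normexp correction. None of the 10 myosin light chains passed limma's test in either genotype, with 0 in flox and 2 in cardioMRKO hearts at an unadjusted p under 0.05. Of all 20062 genes, 6925 in flox and 5010 in cardioMRKO hearts had such a p.

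Of the 16 thick filament partners 1 rose and 1 fell in flox and 1 rose in cardioMRKO hearts, where 22.7% and 10.2% of all genes were called. Trim54, a muscle ubiquitin ligase, rose in both, by 0.69 (limma adjusted p = 0.00353) and 0.70 (adjusted p = 0.0114); with no scaling the flox call was lost (0.45, adjusted p = 0.0834). The flox count became 4 without flox replicate 3 at 2 months, and the cardioMRKO count 2 without flox replicate 4 or cardioMRKO replicate 2 at 2 months. Of the 18 thin filament genes 2 rose and 1 fell in flox and 2 rose and 2 fell in cardioMRKO hearts, and the flox count became 5 without cardioMRKO replicate 3 at 2 months. Tmod4 rose by 0.91 in flox hearts (limma adjusted p = 0.00106).

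Slow muscle partners are genes that slow-twitch muscle expresses together with the β chain. Of the 10, 0 rose and 1 fell in flox hearts, and 0 rose and 2 fell in cardioMRKO hearts, beside 22.7% and 10.2% of all genes called. Tnnt1, the slow troponin T, fell in both, by 0.38 from 2.94, 2.88, 2.84 and 2.87 to 2.47, 2.47, 2.48 and 2.60 (limma adjusted p = 0.0119) and by 0.52 from 2.73, 2.94, 2.62 and 2.83 to 2.37, 2.39, 2.02 and 2.28 (adjusted p = 0.0044), with no overlap between the ages in either. With no scaling it gave -0.61 in flox (limma adjusted p = 0.010) and did not pass in cardioMRKO hearts (-0.41, adjusted p = 0.117). The list's median in flox hearts was -0.24 beside 0.07 for all genes. Without flox replicate 2 or cardioMRKO replicate 3 at 2 months 2 were called in flox hearts, and without cardioMRKO replicate 2 or 4 at 1 month or replicate 1 at 2 months 1 was called in cardioMRKO hearts.

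Of the 22 fetal and hypertrophic genes, the programme in which Myh7 is usually listed, 3 rose in flox hearts, and 4 rose and 1 fell in cardioMRKO hearts. Of all genes, 22.7% and 10.2% were called in these comparisons. The list's medians were 0.095 and 0.105 beside 0.073 and 0.001 for all genes. The actin-binding Xirp2 rose in both, by 0.60 (limma adjusted p = 0.00659) and 0.67 (adjusted p = 0.00778). With the mean of the gene's probes it passed in neither (0.20, limma adjusted p = 0.564, and 0.45, adjusted p = 0.261), nor did it scaled by the array median (adjusted p = 0.0949 and 0.0549), and with no scaling the flox call was lost (0.36, adjusted p = 0.257). The counts became 1 without flox replicate 4 at 1 month and 3 without cardioMRKO replicate 4 at 1 month.

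Of the 14 thyroid hormone handling genes 1 rose and 2 fell in flox and 1 rose in cardioMRKO hearts, where 22.7% and 10.2% of all genes were called. The flox count became 1 without flox replicate 3 or 4 at 1 month. Dio1, an enzyme that activates thyroid hormone, was the gene called higher in both. It entered the test only through the groups at 2 months, where it was well above background on all arrays, so any call had to lie in this direction, and nothing is read from it. In flox hearts it was not well above background on any array at 1 month, at a mean of -6.29 against -4.59 at 2 months. That is 3.26-fold by the processed signal (limma adjusted p = 0.00271), a size that is uncertain so near background. Normexp correction gave a smaller difference of 0.50 (adjusted p = 0.0289). In cardioMRKO hearts it was well above background on 1 of 4 arrays at 1 month and differed by 1.47 (adjusted p = 0.014). The cardioMRKO call was lost after normexp background correction (0.16, adjusted p = 0.638) and without both arrays of high skeletal muscle markers (1.28, adjusted p = 0.0527). Of the 15 thyroid hormone responsive heart genes 3 rose and 1 fell in flox hearts, a count of 2 without flox replicate 3 or 4 at 1 month or flox replicate 4 at 2 months. Among them the potassium channel gene Kcnd3 rose by 0.55 (limma adjusted p = 0.00341), a call lost with no scaling (0.31, adjusted p = 0.217). In cardioMRKO hearts 0 of 15 passed limma's test, with 6 at an unadjusted p under 0.05, against 5010 of all 20062 genes. Without flox replicate 1, 2 or 4 or cardioMRKO replicate 3 at 2 months 1 to 2 were called.

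Of the 37 transcription regulators 4 rose and 2 fell in flox hearts, and 1 rose and 3 fell in cardioMRKO hearts, beside 22.7% and 10.2% of all genes called. Eya1 rose in both, by 1.05 from -2.18, -2.14, -2.16 and -2.17 to -1.39, -0.87, -1.18 and -1.01 in flox hearts (limma adjusted p = 0.000149), and by 0.70 in cardioMRKO hearts (adjusted p = 0.00233), without overlap of the ages in either.

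The arrays with high skeletal muscle markers are set beside Myh7 here, since slow skeletal muscle also makes it. The part of skeletal muscle in the Myh7 levels was not tested, and a fast-muscle gene does not show whether slow muscle was present. By the probe that stands for the gene, Myh7 read 3.57 on flox replicate 3 and 6.91 on cardioMRKO replicate 4, the lowest of its group in both cases. By its other probe flox replicate 3 was again the lowest, at 3.43, but cardioMRKO replicate 4 read 6.93 and replicate 3 was lower, at 6.79. Tnnc2, the fast troponin C, was higher on flox replicate 3 and cardioMRKO replicate 4 by 8.20 and 7.27 than the mean of the other 3 arrays. Without both arrays, a choice made after seeing the data, the genotype difference of Myh7 at 2 months was 3.10 and its rise with age in flox hearts 0.69 (limma adjusted p = 0.00693), the ratio was higher at 2 months in flox hearts by 1.01 (exact permutation p = 0.0286), and the 2 of 9 other myosin heavy chains and 1 of 16 thick filament partners at 2 months were again called. In flox hearts with age 4 thick filament partners and 2 thyroid hormone responsive genes were then called, and 0 transcription regulators between the genotypes at 2 months. Of all genes 213 were then called between the genotypes at 2 months, against 710 with all arrays. For age in flox hearts 3948 were then called, against 4546 with all arrays. The Myh4 probe, though a skeletal marker by name, read 5.68 on the flox array against a mean of 5.11 on the other 3, and 6.45 on the cardioMRKO array against 6.49.

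**Figure D5:**
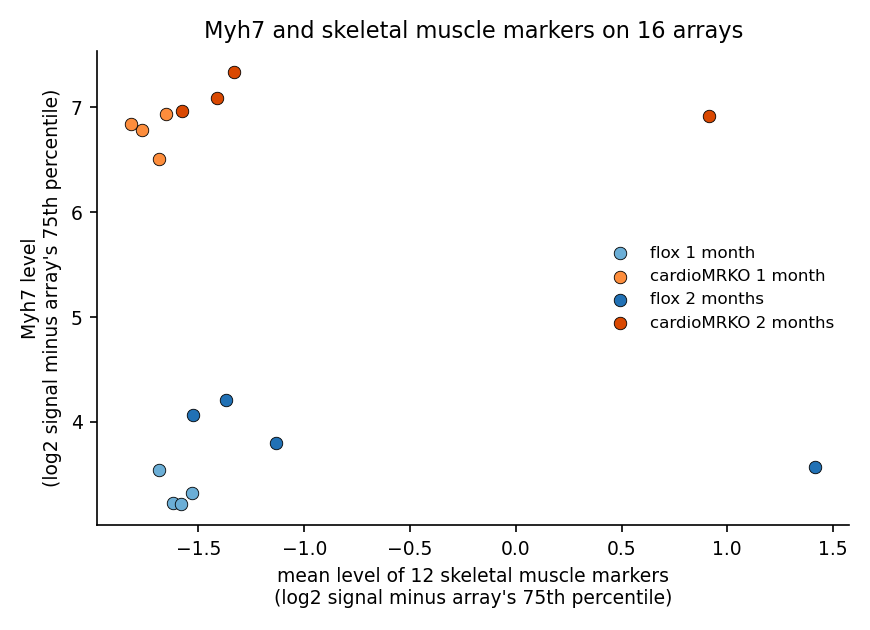
Myh7 level against the mean level of 12 skeletal muscle markers on each of the 16 arrays, both as log2 signal minus the array's 75th percentile, coloured by group. The 2 arrays at the right, at 0.91 and 1.42, carry the lowest Myh7 level of their groups by the probe shown. By the other Myh7 probe this held for the flox array only. The genotypes stay apart on the vertical axis.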

How the data were processed

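Total RNA of 16 whole hearts was labelled with Cy3 and hybridised to single-colour Agilent mouse arrays, per the labels' protocols. The deposited values are intensities per spot, background-subtracted and detrended within each array per the file headers, which name Feature Extraction 12.0.0.7 (the submitters' processing notes name 9.5); the deposited series matrix holds the same intensities (largest difference 0). No normalization between arrays was found in them. Here log2 of the processed signal was taken, spots marked as outliers were set missing, spots of a probe were averaged, and the array's 75th percentile was subtracted. Probes had to be well above background throughout 1 or more of the groups and missing on at most 1 array per group; the brightest kept probe stands for a gene, which left 20062 genes, 14960 of them with a symbol from RefSeq.

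One limma model (R 4.3.3, limma 3.58.1, lmFit and eBayes, 4 group means, 12 residual degrees of freedom) gave all differences, adjusted by Benjamini-Hochberg over all genes and called under 0.05; it was tested on simulated data. Intervals are 95%. The 4 arrays per group limit the precision. Per the series' design text each array is a separate mouse. The genes, lists and markers were chosen with earlier results of these data known. The text names, from each list, the member with the smallest p per genotype comparison, further called members there, and the first called member per age comparison; other called genes are counted, and some genes under this rule are not reported here. Slide could not enter a fit. With an array left out the number of all genes called moved too, so list counts given that way are not read as traits of a list. Same-numbered replicates, which had the same position on their slides, did not deviate together throughout (correlations of -0.31 to 0.36). For replicate 1 they were -0.009 and 0.36 by genotype at 1 and 2 months, and 0.271 and 0.315 with age in flox and cardioMRKO hearts. No pairing was used, and a fit with the replicate number as a block is given in the last section. Alternatives were other scalings, background correction, filters, probe choices, weights, 8 arrays only, the replicate block, the series matrix and each array left out; normexp used the median signals.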

Additional observations from a re-analysis of the deposited data

Results flagged for a closer look

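Of 39 groups of 4 arrays examined for the levels of both Myh7 and Myh6 probes, of Mhrt, of their ratio and of 4 marker lists, 4 had an array far from its other 3, while chance alone sets about 1 in 20 groups apart; none of the 4 concerned Myh7, Myh6, Mhrt or the ratio. The skeletal muscle markers were high on flox replicate 3 at 2 months, at a mean of 1.42, where the gap to the next array was 0.865 of the group's range, and on cardioMRKO replicate 4 at 2 months, at 0.91, with 0.902 of the range. The cardiomyocyte markers were lowest on flox replicate 1 at 2 months, at 6.88, with 0.887 of the range, and the airway markers highest on flox replicate 4 at 1 month, at 2.93, with 0.905 of the range. The genotype difference at 2 months minus that at 1 month was 1.61 for Myh4 (limma adjusted p = 0.020) and 1.99 for Myh8 (adjusted p = 0.00346). Myh4 was lower in all 4 flox arrays at 2 months than in any other array, and so was Myh8.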

How the results depend on the processing

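With the replicate number as a block, Myh7 in flox hearts rose with age by 0.58 (limma adjusted p = 0.0181) and differed by 0.31 in cardioMRKO hearts (adjusted p = 0.227), and no call of Myh7 or Myh6 changed; 20, 1055, 4715 and 2304 genes were called for genotype at 1 and 2 months and for age in flox and cardioMRKO hearts. The numbers were not taken as pairs. Causes of the changes that follow were not tested. With the array median as scale, the age rise of Myh7 in flox hearts was 0.40 (adjusted p = 0.115), Myh6 there passed at -0.45 (0.0128), and its difference in cardioMRKO hearts turned to -0.112; this scale shifted all genes by -0.18 and -0.11 in the 2 age comparisons. No scaling shifted all genes by -0.24 and 0.11 there and by 0.39 for genotype at 2 months. Without scaling, Myh7 gave 0.34 (0.282) for age in flox hearts, 3.56 for genotype at 2 months and 0.074 for the difference between the ages, and Myh6 -0.51 (0.0336), 0.34 and 0.62. Normexp correction gave -0.45 (0.00717) and 0.46 for Myh6 in flox hearts with age and between the ages. Array weights gave -0.30 (0.0223) in flox hearts. Quantile normalization gave -0.073, 0.10 and -0.013 for Myh6 by genotype at 1 and 2 months and with age in cardioMRKO hearts. The mean of both Myh6 probes gave -0.21 at 1 month, 0.14 between the ages and -0.071 with age in cardioMRKO hearts, and a ratio difference with age there of 0.36 (exact permutation p = 0.0286); the other Myh6 probe gave 0.74 in flox hearts (0.0571). With each array left out in turn, the age difference of Myh6 ran from -0.32 to -0.23 in flox and from -0.0605 to 0.0603 in cardioMRKO hearts, and that of the ratio from 0.74 to 1.01 and from 0.23 to 0.39; Myh7 kept its side of the threshold in each. Genes called by genotype at 1 month, 19, became 12 with normexp, 8 without scaling, 187 with array weights, 10 with 8 arrays and 7 to 23 with an array left out (12 or fewer without flox replicate 2 or 3 or cardioMRKO replicate 1, 2 or 3 at 1 month). At 2 months, 710 became 439 without a filter, 96 with 8 arrays, 213 without both arrays of high skeletal muscle markers and 306 to 886 with an array left out (306 to 472 without flox replicate 1, 3 or 4 or cardioMRKO replicate 2, 3 or 4 at 2 months). In cardioMRKO hearts with age, 2056 became 1238 with normexp, 1342 without scaling, 5249 with array weights and 1238 to 2872 with an array left out (1238 to 1331 without cardioMRKO replicate 2 or 3 at 1 month or replicate 1 at 2 months). Among genes taken from the lists by the naming rule, signs turned without scaling at 2 months for Actc1 (0.0069), Myl3 (0.14), Nr3c1 (0.26) and Rxrg (0.0776), with the mean of probes for Nr3c1 (0.20), and with normexp at 1 month for Nr3c2 (0.0164). The other 957 of 1004 values of such genes kept their direction and side of the threshold, with 32 losing and 9 gaining a call. The brightest spots were read at the lower gain, and Dio1 and Myh1 lay at or near background at 1 month.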
